A study of Mus musculus with 6 samples.

Results

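Apoe, Apob, Abca1, Abcg1, Nr1h3, Lpl, Plin2, Soat1, Scarb1 and Lipa serve the transport, storage, cleavage or sensing of cholesterol and other lipids. Their rows were taken by gene symbol from a table of RPE/choroid, the retinal pigment epithelium with the vascular layer beneath it, and all 10 genes were found among the 33924 genes of the table. Poly(A) RNA was sequenced from 3 young and 3 aged male mice of the strain C57BL/6J, and each sample combined the eyes of 1 mouse. Young mice were 1 to 2 months old by their labels. Aged mice were 20 to 24 months old by their titles, while their age field reads 22 to 24 months. The study's text differs from the labels in that it names female mice too and gives a slightly higher young age. The labels name no transgene and no treatment. The deposited table holds 1 usable value per gene, the authors' mean normalized count over the 6 libraries of both age groups. Levels of the tissue as a whole are therefore reported, with no spread between mice and no difference with age. The authors' own columns of the comparison between young and aged mice were not used. Of the 33924 genes, 25517 had a mean above 0, and these are the detected genes. The means of all genes add up to 40816668 after scaling by the authors, which leaves the depth of each library unknown.

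RPE cells engulf the lipid-rich tips of photoreceptor outer segments every day and also take up lipoproteins from the choroidal blood. Cholesterol esters that reach the lysosome are cleaved by lysosomal acid lipase (Lipa), and surplus cholesterol is esterified again by Soat1 and stored in droplets coated by Plin2. Free cholesterol leaves the cell through the transporters Abca1 and Abcg1, onto particles that carry apolipoproteins such as apolipoprotein E (Apoe). Both transporters are textbook targets of the liver X receptors, nuclear receptors for oxysterols of which Nr1h3 is one. Scarb1 is a receptor for high-density lipoprotein, and lipoprotein lipase (Lpl) releases fatty acids from triglyceride-rich particles. Apolipoprotein B (Apob) is the structural protein of very low-density lipoprotein and chylomicrons, and RPE is known to assemble particles that contain it.

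Promoter sequences from RefSeq, on the build GRCm38.p6, were found for 7 of the 10 genes, namely Apoe, Apob, Abca1, Nr1h3, Plin2, Soat1 and Lipa. Abcg1, Lpl and Scarb1 were not matched. Each window runs from 250 bases before the RefSeq start of a gene to 50 bases after it. The windows of Apoe and Apob are shown because these genes had the highest and the lowest level of the 10. Those of Abca1 and Plin2 are shown because they held matches to paired copies of the half-site AGGTCA, which pairs of nuclear receptors bind. Capitals mark the E-box CACGTG, the TATA motif TATAAA, the paired half-sites of Plin2 with 2 mismatches and those of Abca1 with 3. Other matches with 3 mismatches, in Apoe and Plin2, are not marked. The window of Apoe has no capitals, as it held neither CACGTG nor TATAAA and no paired half-sites with at most 2 mismatches. Looser matches in it are given after the sequences and are not marked.
Apoe promoter, chr7:19699139-19699438, minus strand: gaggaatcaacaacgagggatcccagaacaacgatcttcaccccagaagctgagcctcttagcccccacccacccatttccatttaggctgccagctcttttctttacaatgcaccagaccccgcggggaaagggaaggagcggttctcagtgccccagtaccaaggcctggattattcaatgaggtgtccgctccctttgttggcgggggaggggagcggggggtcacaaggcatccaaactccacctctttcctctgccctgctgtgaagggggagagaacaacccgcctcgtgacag
Apob promoter, chr12:7977427-7977726, plus strand: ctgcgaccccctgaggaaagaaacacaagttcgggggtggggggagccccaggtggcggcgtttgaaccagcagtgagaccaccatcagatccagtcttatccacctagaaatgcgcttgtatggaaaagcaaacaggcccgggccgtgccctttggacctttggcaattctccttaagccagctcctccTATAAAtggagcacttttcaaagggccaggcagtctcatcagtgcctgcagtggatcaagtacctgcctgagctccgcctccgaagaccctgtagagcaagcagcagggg
Abca1 promoter, chr4:53159846-53160145, minus strand: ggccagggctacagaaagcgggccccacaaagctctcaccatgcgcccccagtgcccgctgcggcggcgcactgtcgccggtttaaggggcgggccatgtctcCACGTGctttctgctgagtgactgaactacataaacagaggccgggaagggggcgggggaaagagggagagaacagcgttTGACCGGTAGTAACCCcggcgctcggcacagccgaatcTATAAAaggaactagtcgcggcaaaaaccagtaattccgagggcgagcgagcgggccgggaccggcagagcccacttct
Plin2 promoter, chr4:86670010-86670309, minus strand: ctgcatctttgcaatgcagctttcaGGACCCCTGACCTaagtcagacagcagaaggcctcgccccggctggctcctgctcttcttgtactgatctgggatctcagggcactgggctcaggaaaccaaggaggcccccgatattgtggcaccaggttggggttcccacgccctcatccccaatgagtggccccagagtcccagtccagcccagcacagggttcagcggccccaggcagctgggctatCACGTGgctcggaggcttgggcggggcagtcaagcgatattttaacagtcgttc

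The motif DR4, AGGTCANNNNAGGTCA, is the arrangement read by liver X receptors, and DR1, AGGTCANAGGTCA, is the one read by the PPAR family. Both strands were searched, with at most 2 mismatches in the 12 bases of the half-sites. A DR4 match was found in 0 of the 7 genes and in 3.02% of the 32851 windows of all genes. With 3 mismatches allowed, Abca1 held 1, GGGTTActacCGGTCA, which reads against the direction of the gene and begins, in gene order, 67 bases before the start, and 21.9% of all windows held at least 1. A DR1 match with at most 2 mismatches was found in Plin2 alone of the 7 genes, as AGGTCAgGGGTCC on the opposite strand 225 bases before the start, and in 3.86% of all windows. With 3 mismatches allowed, the Apoe window shown held 2 DR1 matches, GGGTCAcAAGGCA and AGGGCAgAGGAAA, and 24.6% of all windows held at least 1. Plin2 then also held AGATCCcAGATCA, on the opposite strand 161 bases before the start. The E-box CACGTG stood in Abca1, 147 bases before the start, and in Plin2, 4 bases before it. It stood in 7.15% of all windows. TATAAA was found on either strand in 4 of the 7 genes, Apoe, Apob, Abca1 and Lipa, and in 13.6% of all windows. For each motif a gene was counted if any of its windows held a match, while the shares count single windows. In Abca1 TATAAA lay 29 bases before the start, and in Lipa it lay 239 bases before the start on the opposite strand. In Apob it lay 60 bases before the RefSeq start, and the GENCODE start of Apob lies 29 bases upstream of the RefSeq start. The GENCODE start of Nr1h3 lies 7718 and 7799 bases upstream of the starts of its 2 RefSeq windows, so the bases before that start were not searched. RefSeq lists 3 windows for Apoe, and TATAAA was in the second of them, on both strands in overlapping positions. A match is a description of letters, and binding was not measured. CpG dinucleotides numbered 26 in the window of Abca1, more than in 83.1% of all windows, and 19 in that of Soat1. The windows of Apoe shown here, Plin2, Apob and Lipa held 10, 10, 9 and 7, against a median of 7 over all windows.

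Apoe stood far above the other 9 genes (the plot of levels by gene). Apoe (ENSMUSG00000002985.16; chromosome 7, minus strand, 19696109 to 19699188 in GRCm38, the build of all positions given here) has 4 exons in its longest protein-coding transcript of 1408 bases. Its mean normalized count was 279042, which was 0.684% of all counts and the sixth highest value of the table (rank 6 of 25517 detected genes). The 10 genes together took 0.75% of all counts, and Apoe made up 91.2% of their sum. Where values are read counts, longer transcripts yield more of them. Levels of different genes are therefore set side by side per kilobase (kb) of the longest transcript in the GENCODE annotation. It had a length for 22034 detected genes. The authors' processing passed through a unit relative to transcript length, and whether the means still scale with length was not settled. If they do not, levels and ratios per kb favour genes with short transcripts over those with long ones. Per kb of the longest transcript Apoe reached 198183 mean normalized counts and again held rank 6. Its level per kb was 3.24 times that of Rpe65, the isomerase of the visual cycle. It was 0.591 times that of Ttr, the gene for transthyretin, which RPE secretes, although with the median transcript length the ratio to Ttr was 1.02.

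**Figure D1:**
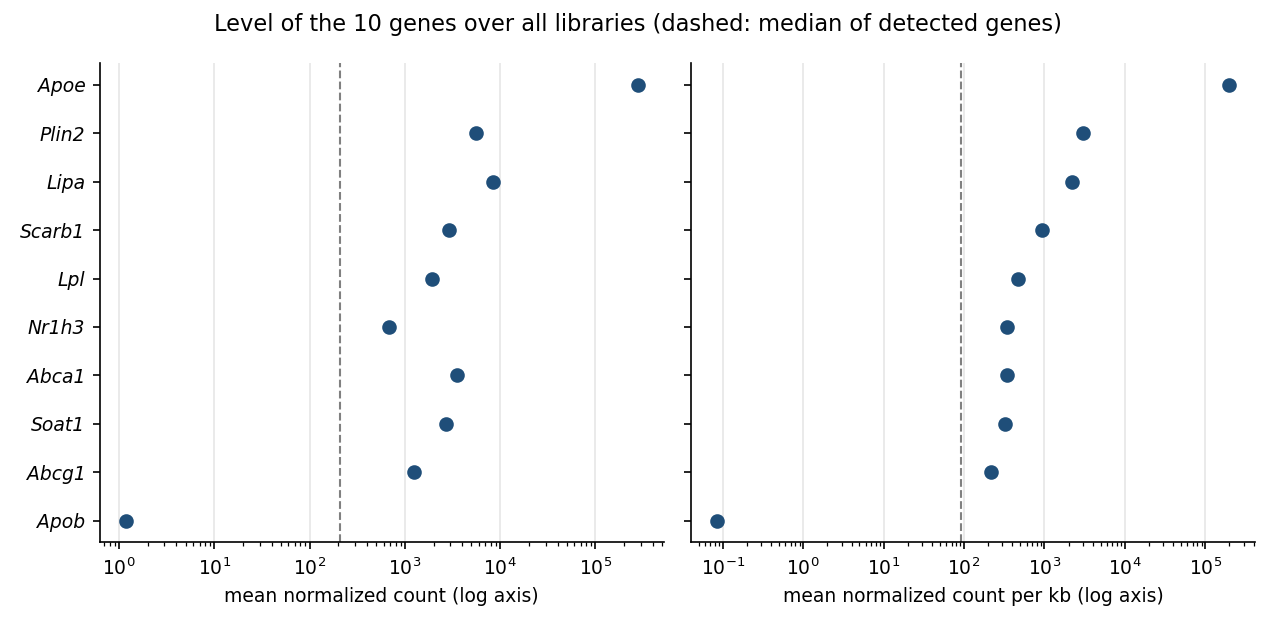
Mean normalized count (left) and mean normalized count per kb of the longest transcript (right) of the 10 genes on log axes, 1 point per gene for the authors' mean over the 6 libraries, with the median of detected genes as a dashed line. Apoe lies at 279042 and Apob at 1.17, and the other 8 genes lie between 680 and 8479, above the median of 211.

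Among 14 genes for apolipoproteins and related lipid carriers, Apoe was followed by Clu (34496 per kb), the chaperone clusterin, and by Apod (9173 per kb). The ratio of Apoe to Clu was 5.75 per kb and that of Apoe to Apod was 21.6, or 8.91 by coding length. The remaining carriers were far lower, with 153 per kb for Apoc1 and 139 per kb for Apoc2. Apoa4 and Apoa5 were listed at 0. A count of 0 in all libraries still allows up to 3 counts in all, a mean of 0.521, a limit that covers counting error only and takes each count as 1 molecule. Apoc1, Apoc4 and Apoc2 lie next to Apoe on the same strand of chromosome 7, with 3448, 14629 and 18167 bases between each gene and Apoe. Their mean normalized counts were 81.5, 13.4 and 101, and Apoe was 1293 times Apoc1 per kb. Tomm40, a subunit of the mitochondrial import pore on the other side of Apoe, had a mean of 1005 and 364 per kb.

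Apob (ENSMUSG00000020609.14; chromosome 12, plus strand, 7977648 to 8016835, 29 exons) was barely read. Its mean normalized count was 1.17, higher than those of 12.9% of detected genes, and divided by its longest transcript of 13934 bases this was 0.0839 per kb. For means this low, the whole counts behind the mean could be recovered, because a count of 1 in a library adds a fixed step to the mean and the 6 libraries have different steps. Each of the 5437 genes with a mean under 4 had exactly 1 solution in whole counts. Apob had 7 counts in all, which were 4, 2 and 1 in 3 libraries and 0 in the other 3, and which library belongs to which age group is not known from this column. Apob was thus read in some libraries only, at a level where counting error alone is large. Among the same 5437 genes, counts of 2 in a library (5637 cases) were more frequent than counts of 1 (2454 cases), and 69.3% of all counts above 0 were even. The origin of the even counts was not tested, and no interval is given for these counts, since an interval would treat each count as 1 molecule. Mttp, the transfer protein that loads lipid onto apolipoprotein B, had a mean of 278 and 70.2 per kb. Apoa1, the main protein of high-density lipoprotein, had 14 counts in all, with 6 in 1 library, 2 in each of 4 libraries and 0 in the last.

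Both efflux transporters were expressed at moderate levels. Abca1 (ENSMUSG00000015243.4; chromosome 4, minus strand, 53030787 to 53159895, 50 exons), which exports cholesterol to lipid-poor apolipoproteins, had a mean normalized count of 3504 and 341 per kb. Abcg1 (ENSMUSG00000024030.7; chromosome 17, plus strand, 31057675 to 31117988, 15 exons), which exports cholesterol to mature particles, had a mean of 1254 and 215 per kb. Abca1 was 1.59 times Abcg1 per kb of the longest transcript, but 0.823 times when coding length was used (517 against 627 per kb), so these data give them no fixed order. Of the 8 efflux transporters listed, Abcg2, an exporter of drugs and urate, was the highest with 604 per kb, and Abcg8 was the lowest with 2.96. Abcg5 and Abcg8, partners in sterol export in liver and gut, had means of 73.6 and 10.9.

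Nr1h3 (ENSMUSG00000002108.10; chromosome 2, minus strand, 91184061 to 91202834), the liver X receptor alpha, had the lowest mean of the 10 genes after Apob, with 680 mean normalized counts and 343 per kb. Per kb of the longest transcript this was close to Abca1 (341) and Soat1 (319). By coding length Nr1h3 had 509 per kb, Abca1 517 and Soat1 1648. With the median transcript length they had 399, 635 and 3376. The second liver X receptor, Nr1h2, had a mean of 1420 and was 2.07 times Nr1h3 per kb, and between 2.04 and 5.16 times under the 4 lengths tried. Of the retinoid X receptors, which pair with both, Rxrb and Rxra had 787 and 724 per kb and Rxrg had 120 per kb. Among the 12 receptors and partners listed, Mylip, a ubiquitin ligase induced by liver X receptors, was the highest with 841 per kb, and Ppard was the lowest with 22.3. A noncoding transcript, Gm13783, overlaps Nr1h3 on the same strand and had a mean of 2.15.

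Scarb1 (ENSMUSG00000037936.15; chromosome 5, minus strand, 125277087 to 125341094) had a mean normalized count of 2921 and 944 per kb. Among 11 receptors for lipoproteins and fatty acids, Cd36, a scavenger and fatty acid receptor, had the highest level with 1696 per kb and Scarb1 came next, although Cd36 was 0.603 times Scarb1 with the median transcript length. Scarb2, a lysosomal membrane protein of the same family, had 861 per kb, so that Scarb1 was 1.10 times Scarb2, 0.678 times by coding length and 2.95 times with the median transcript length. Vldlr and Lrp1 had 683 and 639 per kb. Olr1, a receptor for oxidized LDL, was the lowest of the list with 0.56 per kb and 12 counts in all libraries together.

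Lpl (ENSMUSG00000015568.16; chromosome 8, plus strand, 68880491 to 68907448, 10 exons) had a mean normalized count of 1929 and 469 per kb. Gpihbp1, which carries the enzyme across capillary endothelium and anchors it there, had 159 per kb, and the ratio of Lpl to Gpihbp1 was 2.95. Lmf1, needed for folding of the enzyme, had 123 per kb, and Angptl4, its inhibitor, had 270 per kb. Of the 11 lipases and cofactors listed, Mgll, which cleaves monoglycerides, was the highest with 10053 per kb.

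**Figure D2:**
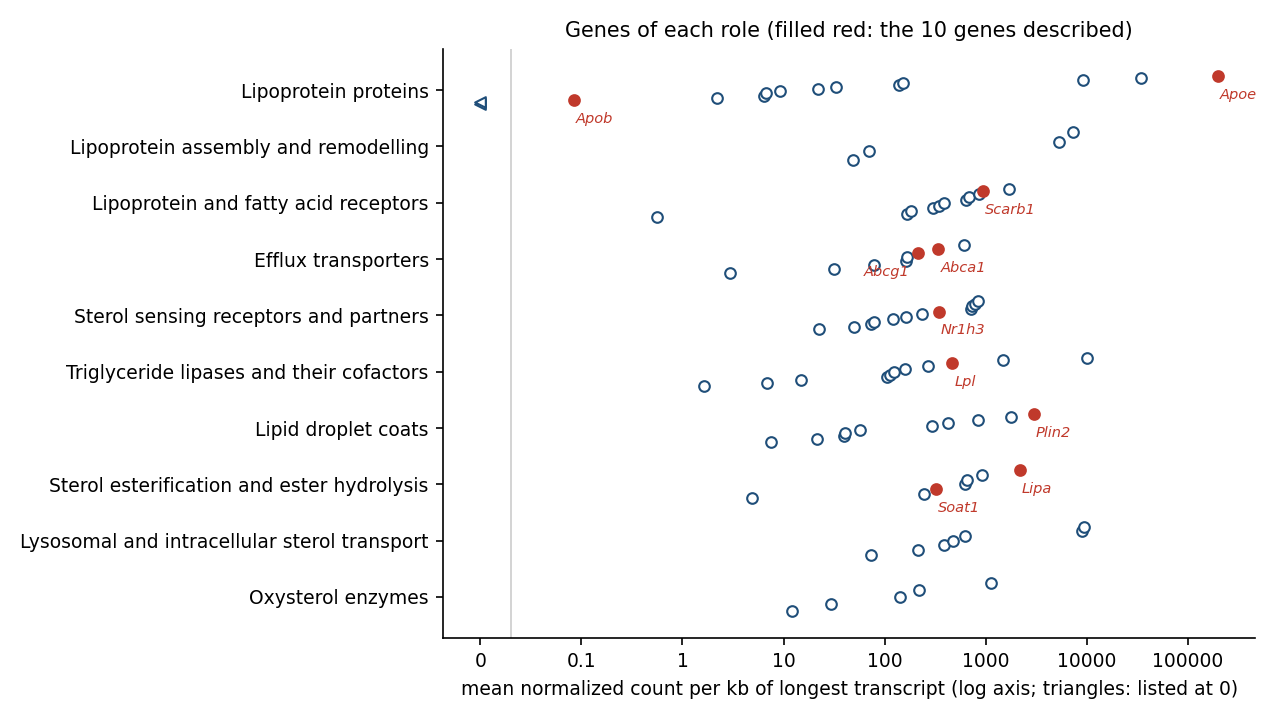
Mean normalized count per kb of the longest transcript, on a log axis, of the genes in 10 role lists, 1 point per gene, with the 10 genes described filled in red and genes listed at 0 as triangles. Plin2 and Lipa are the highest of their lists at 2976 and 2177, and Apob at 0.0839 is the lowest carrier above 0.

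Plin2 and Lipa ranked next to Apoe per kb. Plin2 (ENSMUSG00000028494.12; chromosome 4, minus strand, 86648386 to 86670060, 8 exons) had a mean normalized count of 5618 and 2976 per kb, higher than 95.2% of the detected genes with a length. It was 1.67 times Plin3, a coat protein of nascent droplets with 1780 per kb, although the ratio was 0.89 by coding length and 2.58 with the median transcript length. Plin1, the coat protein of fat cells, was the lowest of the 10 droplet genes with 7.53 per kb, and Plin2 was 395 times as high. Lipa (ENSMUSG00000024781.16; chromosome 19, minus strand, 34492318 to 34527474, 10 exons) had a mean of 8479 and 2177 per kb. Plin2 exceeded Lipa 1.37 times per kb of the longest transcript, and by coding length the ratio was 0.619.

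Soat1 (ENSMUSG00000026600.12; chromosome 1, minus strand, 156424525 to 156474331, 16 exons) had a mean normalized count of 2670 and 319 per kb. Its transcript of 8371 bases has 1620 coding bases, so that its level per kb of coding length was 1648. The second cholesterol acyltransferase, Soat2, had a mean of 10.8 and 4.89 per kb, and Soat1 was 65.2 times as high per kb of the longest transcript, 240 times by coding length and 600 times with the median transcript length. Lipa was 6.82 times Soat1 per kb, but 1.16 times with the median transcript length, and by the longest transcript it was the highest of 7 genes for esterification and ester cleavage, of which Soat2 was the lowest. Nceh1, a neutral cholesterol ester hydrolase, had 918 per kb, and Lipa was 2.37 times as high, but 0.637 times with the median transcript length. Downstream of Lipa, Npc2, which passes free cholesterol to the lysosomal membrane, had 9018 per kb, and the membrane protein Npc1 had 386. Tspo, an outer mitochondrial membrane protein, was the highest of the 7 sterol transport genes listed with 9435 per kb, and Star was the lowest with 72.6. Of the 5 oxysterol enzymes listed, Cyp27a1, which makes a ligand of the liver X receptors, was the highest with 1120 per kb, and Cyp11a1 was the lowest with 12.1. Of the 4 genes for lipoprotein assembly and remodelling, P4hb, a protein disulfide isomerase, was the highest with 7322 per kb, and Lcat was the lowest with 48.3. Pltp, a phospholipid transfer protein, had 5341 per kb.

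Across the 10 role lists 89 genes were found in the table, and 79 of them are not among the 10 genes described. A mean normalized count of at least 1000 was reached by 8 of the 10 genes and by 35 of the 79 others, against 29.7% of detected genes. Nr1h3 and Apob were the ones below it.

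The highest and lowest genes of each role list above are those per kb of the longest transcript. The order of the 10 genes per kb depended on the length used (the plot of levels under 4 lengths). Apoe was the highest, Apob the lowest and Scarb1 the fourth under each of the 4 lengths. By coding length Lipa (7120 per kb) stood above Plin2 (4406 per kb), and Soat1 moved from the eighth place to the fifth. With no value per library, no spread can be set beside these levels, and neighbours in the order are not shown to differ.

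**Figure D3:**
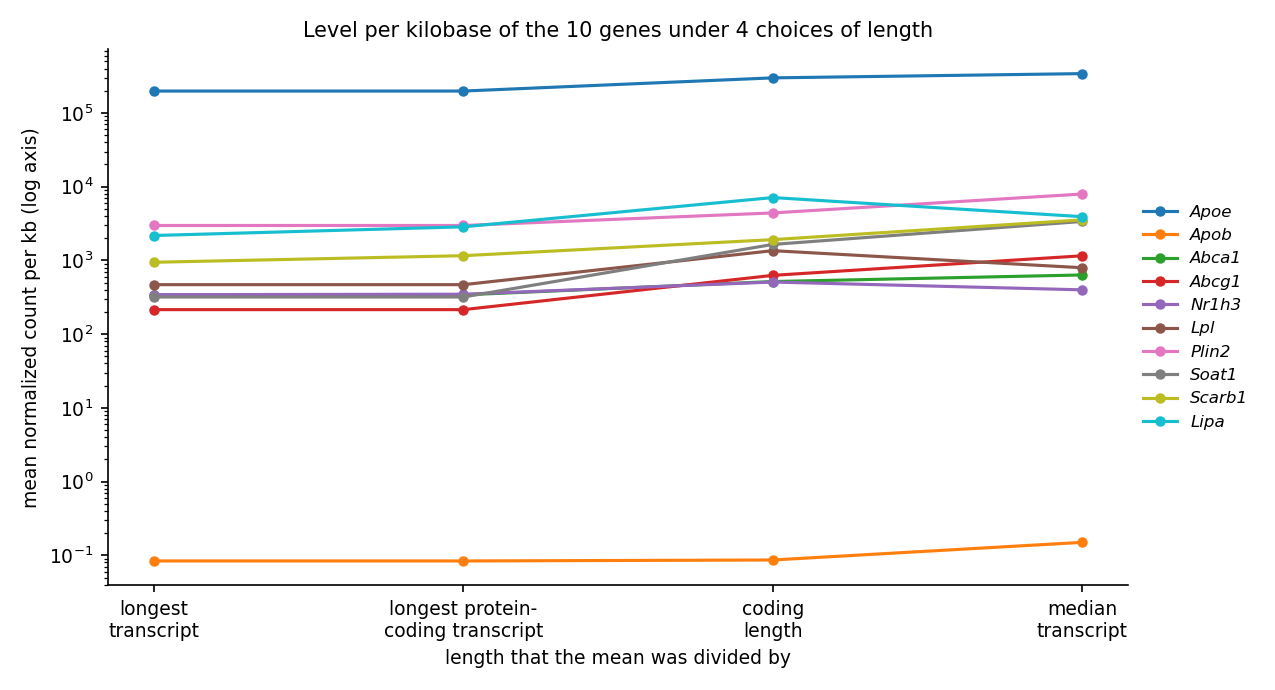
Mean normalized count per kb, on a log axis, of the 10 genes under 4 choices of the length the mean was divided by, 1 line per gene. Apoe stays between 198183 and 341545 and Apob between 0.0839 and 0.15, and Scarb1 keeps the fourth place while lines of other genes cross.

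The labelled tissue was checked against marker genes, since a level in RPE/choroid does not tell which cells hold the transcripts. Of 9 RPE markers 8 had means of at least 1000, with 113930 for Rpe65 and 102636 for Rlbp1. Best1, a chloride channel of RPE, was low with 81.8. Rod transcripts were also abundant, with a mean of 46603 for Sag, the rod arrestin, and the 4 melanocyte markers, of which Dct, Tyrp1 and Pmel also serve pigment in RPE, lay between 25408 and 256984. The 8 macrophage markers lay between 1014 for Aif1 and 121895 for Lyz2, and the 6 endothelial markers between 717 and 7369. The 4 Mueller glia markers, of which Rlbp1 is also an RPE gene, lay between 1500 and 102636, and the 4 Schwann cell markers between 608 and 4803. The 2 red cell markers matched, Hba-a1 and Alas2, had means of 37845 and 1591. The 4 skeletal muscle markers lay between 35123 and 48944. Apoe, Abca1, Abcg1 and Lipa are among the genes known to be expressed in macrophages as well as in RPE. The share of macrophages, Mueller glia or any other cell type in the levels of the genes described was not tested. Hepatocytes and enterocytes, which secrete Apob in liver and gut, had low markers. Of 5 hepatocyte markers Alb had a mean of 6.4 and Fgb was listed at 0, and of 4 enterocyte markers Fabp2 and Apoa4 were listed at 0. The highest markers of these lists were Cyp2e1 with 112 and Vil1 with 53.1. The 4 adipocyte markers lay between 2.98 for Lep and 65.5 for Adipoq. Lpl, which fat cells express strongly, had a mean of 1929, and which cells held its transcripts was not tested.

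**Figure D4:**
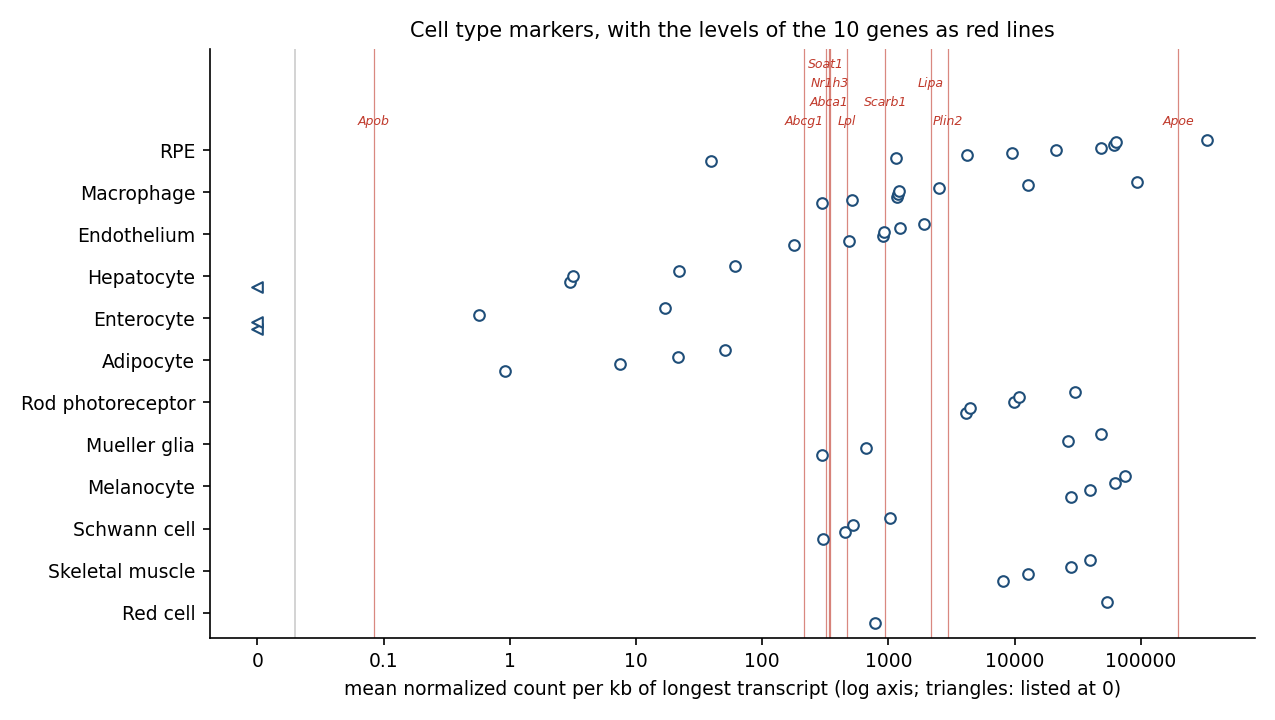
Mean normalized count per kb of the longest transcript, on a log axis, of cell type markers, 1 open point per marker and triangles for markers listed at 0, with the levels of the 10 genes as red lines. The line of Apoe at 198183 lies above every marker except Ttr at 335233, and the line of Apob at 0.0839 lies below every marker above 0.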

How the data were processed

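Poly(A) RNA of RPE/choroid of 6 mice, 3 per age group, was sequenced by the authors. The table of DESeq2 results that the authors deposited lists 33924 genes, 25 of them with symbols turned into dates. The mean normalized count is a signal that the authors averaged over the libraries of both groups. By the study's text, reads were trimmed with BBDuk and mapped with STAR to GRCm38 transcripts. Quantification with Sailfish gave TPM, a unit relative to transcript length, which was transformed to normalized counts by total count. Means under 4 nevertheless had solutions in whole counts, and how these arose from the steps described was not tested. Per the labels the protocol also describes ribosomal RNA removal and a stranded kit. The remaining columns hold the authors' own comparison of young with aged mice (fold change, its standard error, Wald statistic, p-value and adjusted p-value) and were not used. The planned fit to counts per library could not be run, as the table holds 1 pooled value per gene.

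The 10 genes and the gene lists were chosen with earlier results of these data known. The genes named are the 10 genes, those of highest and lowest level per kb in each role list, those listed at 0 in the role lists, the neighbours of Apoe, and cell type markers. A few genes that this rule would name are not reported here. Other list genes named for their role were chosen after their values were seen. Older symbols were matched through RefSeq synonyms, and Hbb-bs was not matched.

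Lengths and positions came from GENCODE M21 (GRCm38), which matched 84.1% of the genes and 92.2% of the counts by symbol. Means were divided by the longest transcript, retained introns included. Values already divided by length would be larger in shorter genes. Genes with a mean under 4 and a known length were put in 3 equal groups by length (median lengths 386, 944 and 2420 bases). In each group the median count above 0 in a library was 2. Counts of 1 made up 23.3%, 16.7% and 12.1% of such counts, from the shortest to the longest group. Because the limit on the mean keeps counts small at every length, this median cannot show whether values had been divided by length. This check was added after the data were seen, and more abundant genes were not checked. Whole counts were solved for means under 4, from the steps that 6 libraries with size factors between 0.959 and 1.06 give, within about 1e-09, and the procedure was tested on simulated data. Python 3.11.15 with numpy 2.4.6, pandas 2.3.3 and scipy 1.17.1 was used, and matplotlib 3.10.9 for figures.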

Additional observations from a re-analysis of the deposited data

How the results depend on the processing

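No paired analysis was possible because each gene has a single mean over all libraries. Without values for each library, the edgeR and DESeq2 fits, the fit with no filter and leaving out each replicate were not run. The rank of the 9 genes other than Apob cannot change when only genes with means under 10 or 100 are removed, so these filters do not test it, and the median mean of the members moved from 2795 to 2921 under both, because Apob drops out. The median per kb of the 10 genes was 406 with the longest transcript, 408 with the longest protein-coding transcript, which was chosen after seeing the data, 1502 with coding length and 2266 with the median transcript length. The pairs of genes compared by ratio per kb were not fixed in the plan. Some of their ratios were very large, such as Apoe to Apoc1 (1293) and Plin2 to Plin1 (395). The share that kept its order thus depends on the pairs picked. Of the 21 ratios, 14 kept their order under every length. The others reversed because the lengths differ between genes. With coding length these were Abca1 to Abcg1 (0.823), Plin2 to Plin3 (0.89), Plin2 to Lipa (0.619) and Scarb1 to Scarb2 (0.678). With the median transcript length they were Abca1 to Abcg1 (0.55), Cd36 to Scarb1 (0.603), Lipa to Nceh1 (0.637) and Apoe to Ttr (1.02). DR4 was found in 0 genes with 1 or 2 mismatches and in 1 with 3, and DR1 in 0 with 1 mismatch, 1 with 2 and 2 with 3, as looser limits add matches by construction.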
